A study of Homo sapiens with 71 samples.

Results

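GRNY and ORNY are 2 of the 16 surface water sites whose water was given to HepG2 cells, a human hepatoma line. Their libraries were set directly against each other here over every tested gene. The members are the 4 GRNY and the 4 ORNY libraries, 8 of the 71 in the series, and were taken by the site named in the labels. GRNY cells spent 48 h in culture medium of which 75% was GRNY water, and ORNY cells spent the same time in medium with 75% ORNY water. Both waters had been passed through a 0.7 µm filter and mixed into concentrated medium with serum and antibiotics. The 8 control libraries (CTRL) came from cells in the same medium made with purified water, and are given beside both sites. All dishes were seeded from the same pool of cells and precultured for 72 h. Each site was a single field-collected water given to 4 dishes, so that errors and p-values measure the spread between dishes and not between water samples of a site. The site codes are used as the labels give them, and no water chemistry was analysed here. RNA was measured with TempO-Seq, which ligates neighbouring probes bound to a chosen transcript and counts the products by sequencing.

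HepG2 cells keep much of the hepatocyte programme: they secrete plasma proteins, conjugate bile acids and run urea cycle and lipid enzymes, and they divide. Several gene groups that appear below have well-known regulators. YAP is a transcriptional co-activator that enters the nucleus when cells are spread, stretched or sparse, and that switches on genes such as CCN2 and ANKRD1 through the DNA-binding TEAD proteins. E2F factors switch on the genes of DNA replication when a cell enters S phase. NRF2 does so for antioxidant enzymes, the HIF factors for glycolytic enzymes under low oxygen, ATF4 for amino acid synthesis, and the metal sensor MTF1 for metallothioneins.

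Summed counts lay between 5.33 and 9.45 M (1e+06 counts) in the GRNY libraries, between 4.88 and 9.18 M in the ORNY libraries and between 8.18 and 14.5 M in the controls. Of 12425 features with counts, 6916 passed the filter on low counts and were tested. The HepG2 and liver genes ALB, AFP, APOA1 and APOB were abundant in both groups: AFP averaged 33693 ± 9516 CPM in GRNY water and 36174 ± 5809 CPM in ORNY water (SD, n = 4 each). Libraries of 1 site were not equally alike. The SD of a library's log2 differences from the mean of its own site was 0.411, 0.63, 0.482 and 0.801 for GRNY 1 to 4, against 0.291, 0.299, 0.278 and 0.394 for ORNY 1 to 4, and 0.22 to 0.369 for the 8 controls. GRNY 4 and ORNY 4 therefore stood farthest from the rest of their sites, and counts without both are given for the whole comparison and for most lists described. Values per library are listed in the order 1 to 4 throughout, as CPM, counts scaled to 1e+06 per library after TMM, a factor that removes differences in library composition.

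GRNY and ORNY cells differed in 2209 of the 6916 tested features, which is 31.9% (edgeR quasi-likelihood test, adjusted p under 0.05, called below), and in 2258 without GRNY 4 and ORNY 4. Of these, 1091 (15.8%) were higher and 1118 (16.2%) were lower in GRNY water. Differences on the log2 scale are GRNY minus ORNY. Their median was -0.02 over all tested features, 0.61 over the features called higher and -0.77 over those called lower. A difference of more than 2-fold was reached by 153 of the higher features and 365 of the lower ones. All 4 GRNY libraries lay above all 4 ORNY libraries in 622 of the 1091, and below them in 691 of the 1118. Over all tested features these patterns were seen in 10.5% and 11.7%. The calls were not spread evenly over expression levels: of the 1729 least expressed features 5.32% were higher and 12.3% lower, and of the 1729 most expressed 26.2% were higher and 16.8% lower.

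**Figure D1:**
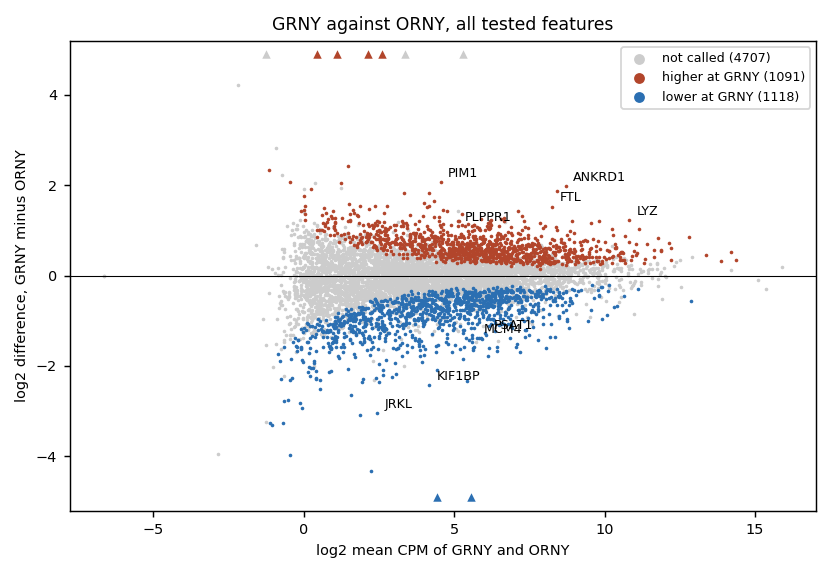
Log2 difference, GRNY minus ORNY (vertical), against the log2 of the mean CPM over both sites (horizontal), 1 point per tested feature. Features called higher at GRNY (1091, red) and called lower (1118, blue) lie on both sides of 0, and triangles mark the 9 features beyond 5 log2 units.

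For most called features the controls lay between the sites. The control mean lay between the GRNY mean and the ORNY mean for 1070 of the 1091 features called higher (98.1%) and 1094 of the 1118 called lower (97.9%), against 67.3% of all tested features; a wider gap between the sites leaves more room for the control mean to fall in it. Against the controls alone, 634 features (9.17%) were called at GRNY, 301 higher (4.35%) and 333 lower (4.81%). At ORNY 283 (4.09%) were called, 100 higher (1.45%) and 183 lower (2.65%). These 2 comparisons share the 8 controls and the site libraries used above. Both depended on single libraries: 116 features were called at GRNY without GRNY 2, and at ORNY 34 without ORNY 1, 125 without ORNY 2, 32 without ORNY 3 and 700 without ORNY 4. They also depended on the libraries in the fit: with all 71 libraries 10 features were called at GRNY and 14 at ORNY, and with GRNY, ORNY and controls alone 123 and 30. ORNY 4 was the ORNY library nearest to the GRNY mean for 860 of the 1091 features called higher and for 774 of the 1118 called lower.

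Among all 120 pairs of the 16 sites, fitted in the same model, the GRNY and ORNY pair ranked 11 by number of calls. The median pair had 351 calls, and the range ran from 0 to 2582 (LRMN and MAWI). For ORNY only the pair with LRMN had more calls (2554). GRNY had more calls against MAWI (2445), IHIN (2326) and CRMI (2320). Each site also had pairs with 0 calls. These were GRMI, IHIN, MAWI, MIWI, MROH and SRMI for ORNY, and CROH, FRWI, JRMI and VROH for GRNY. A change in which libraries entered the fit moved the count for GRNY against ORNY by more than 1.5 times. In that comparison 913 features were called with all 71 libraries in the model, and 653 with the 8 GRNY and ORNY libraries alone. None of the 2209 called features turned direction in any of the 16 alternative fits that gave it a value, and 2148 had a value in all 16. Calls of described genes that were lost with 1 library left out, with all 71 libraries or with the 8 libraries alone are named within the same paragraph.

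**Figure D2:**
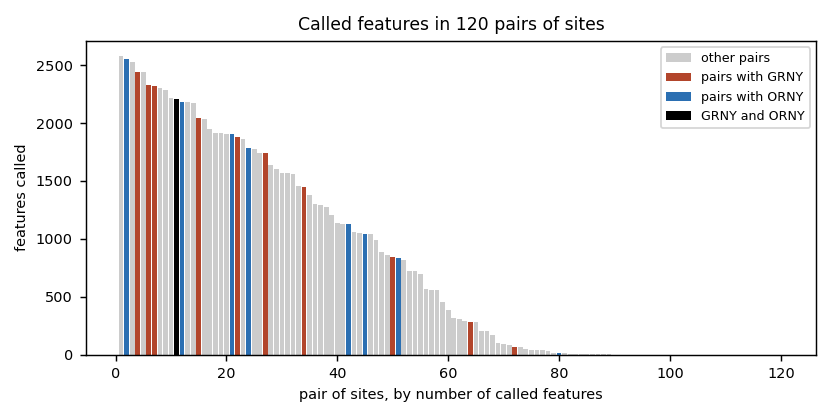
Number of called features (vertical) in each of the 120 pairs of sites, ordered by that number (horizontal); pairs with GRNY are red, pairs with ORNY blue and the GRNY and ORNY pair black. The black bar, at 2209, stands 11th from the left, and pairs share libraries.

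The promoters of 4 genes are shown first, 2 from the YAP target list, which had the largest share of members called higher in GRNY water, and 2 from the DNA replication list, which had the largest share called lower. Short DNA words are known for the regulators of both lists. The windows are RefSeq's (GRCh38.p14), from 250 bases before to 50 after the gene start, 5′ to 3′. Capitals in ANKRD1 and CCN2 mark the TEAD core GGAATG, and capitals in GINS2 and POLA2 mark the E2F-type word TTTNNCGC, both searched on either strand. The windows are chr10:90921038-90921337 (minus strand) for ANKRD1, chr6:131951323-131951622 (minus strand) for CCN2, chr16:85688905-85689204 (minus strand) for GINS2 and chr11:65261712-65262011 (plus strand) for POLA2.
ANKRD1: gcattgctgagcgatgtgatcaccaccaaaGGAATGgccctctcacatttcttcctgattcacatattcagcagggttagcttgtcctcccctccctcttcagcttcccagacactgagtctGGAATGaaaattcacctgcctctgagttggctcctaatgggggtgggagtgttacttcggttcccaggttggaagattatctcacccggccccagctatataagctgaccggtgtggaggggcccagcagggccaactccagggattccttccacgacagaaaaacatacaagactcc
CCN2: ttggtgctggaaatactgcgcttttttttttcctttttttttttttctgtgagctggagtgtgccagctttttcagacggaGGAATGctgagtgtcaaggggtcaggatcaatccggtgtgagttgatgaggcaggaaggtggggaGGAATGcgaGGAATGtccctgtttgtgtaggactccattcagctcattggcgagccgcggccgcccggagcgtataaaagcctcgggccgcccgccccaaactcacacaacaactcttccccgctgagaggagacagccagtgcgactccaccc
GINS2: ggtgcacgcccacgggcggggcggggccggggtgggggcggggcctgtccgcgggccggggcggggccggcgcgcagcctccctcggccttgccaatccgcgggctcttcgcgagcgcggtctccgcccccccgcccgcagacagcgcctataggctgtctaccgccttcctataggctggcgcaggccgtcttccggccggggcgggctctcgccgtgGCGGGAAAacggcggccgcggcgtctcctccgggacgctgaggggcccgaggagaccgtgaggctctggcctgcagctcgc
POLA2: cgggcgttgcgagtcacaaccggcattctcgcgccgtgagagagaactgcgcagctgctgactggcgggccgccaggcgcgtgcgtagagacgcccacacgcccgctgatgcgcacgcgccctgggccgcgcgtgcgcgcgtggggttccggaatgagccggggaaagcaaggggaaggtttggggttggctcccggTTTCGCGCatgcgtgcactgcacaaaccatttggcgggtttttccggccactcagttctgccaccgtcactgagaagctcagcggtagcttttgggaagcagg
ANKRD1 held 2 matches and CCN2 held 3, all on the coding strand. GINS2 and POLA2 held 1 match each, GINS2 on the opposite strand. No marked matches overlapped. GGAATG was present in 14% of all 35116 promoters in the table and in 10.5% of the 5467 that belong to tested features, and TTTNNCGC in 6.89% and 10.6%. Neither word separated the directions over all called features. GGAATG was in 11.1% of the promoters of features called higher and 11.7% of those called lower, and TTTNNCGC in 9.25% and 11.4%. The E2F-type word was in 14 of the 22 replication promoters that the table holds, out of 27 tested members. For the TEAD word no share of the YAP list is given, since the table holds 14 of its 19 tested members. A match describes these letters and is not evidence of binding.

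Of 19 tested YAP targets, 15 were higher and 1 was lower in GRNY water, with a median log2 difference of 0.74, against 15.8% higher and a median of -0.02 over all tested features. ANKRD1 (chromosome 10, 90912096 to 90921276, minus strand), which encodes a nuclear ankyrin repeat protein, had 524, 698, 604 and 827 CPM in the GRNY libraries, against 107, 159, 136 and 274 CPM in the ORNY libraries. The lowest GRNY library was above the highest ORNY library, ORNY 4, and the controls averaged 483 ± 99 CPM (SD, n = 8), between the sites. Its difference was 1.98 ± 0.20 (SE, adjusted p = 3.94e-10), the smallest p-value of the whole comparison. CCN2 (chromosome 6, 131948176 to 131951373, minus strand), the matricellular protein once called connective tissue growth factor, had 464, 419.9, 391 and 891 CPM in the GRNY libraries, against 113, 145, 132 and 205 CPM in the ORNY libraries. GRNY 4 was well above the other 3 GRNY libraries, and without it the groups still did not overlap; the difference was 1.87 ± 0.22 (SE, adjusted p = 1.3e-08). AJUBA, an adaptor that restrains the LATS kinases of the Hippo pathway, had 101, 145, 108 and 119 CPM in the GRNY libraries, against 58.1, 73, 59.6 and 77 CPM in the ORNY libraries, a difference of 0.82 ± 0.13 (SE, adjusted p = 2.28e-06). IGFBP3, a secreted binder of insulin-like growth factors, differed by 1.02 ± 0.16 (SE, adjusted p = 4.23e-06). Against the controls, CCN2 was higher in GRNY water, at 0.79 (adjusted p = 0.00625) and lower in ORNY water, at -1.08 (adjusted p = 0.000608), while ANKRD1 was at 0.46 in GRNY water (adjusted p = 0.0611) and lower in ORNY water, at -1.52 (adjusted p = 8.49e-08).

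The other YAP targets called higher were, with log2 differences, LATS2 (1.22), AXL (1.01), PTPN14 (0.95), GADD45B (0.74), ANLN (0.51), AMOTL2 (0.85), DLC1 (0.55), ASAP1 (0.32), CRIM1 (0.43), CAVIN2 (0.48) and CCN1 (1.06). LATS2 and AMOTL2 encode inhibitors of YAP that YAP itself switches on, AXL is a receptor tyrosine kinase, and CCN1 is a close relative of CCN2. The single member called lower was NT5E (-0.52), which encodes the ectoenzyme that makes adenosine. These are all called members of the list, named without regard to rank. Leaving out 1 library at a time left 13 to 15 members called higher, and leaving out GRNY 4 and ORNY 4 together left 14. The 8 libraries alone gave 8 and all 71 gave 10. ANLN, ASAP1, CRIM1, CAVIN2, CCN1 and NT5E were called in neither of these fits, and AXL and GADD45B not with the 8 alone. ASAP1 also lost its call without ORNY 1, CRIM1 without GRNY 2 or GRNY 3, CAVIN2 without GRNY 2, GRNY 3, ORNY 1 or ORNY 2, CCN1 without GRNY 1, GRNY 4, ORNY 2 or ORNY 3, and NT5E without GRNY 2, GRNY 4 or ORNY 2.

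**Figure D3:**
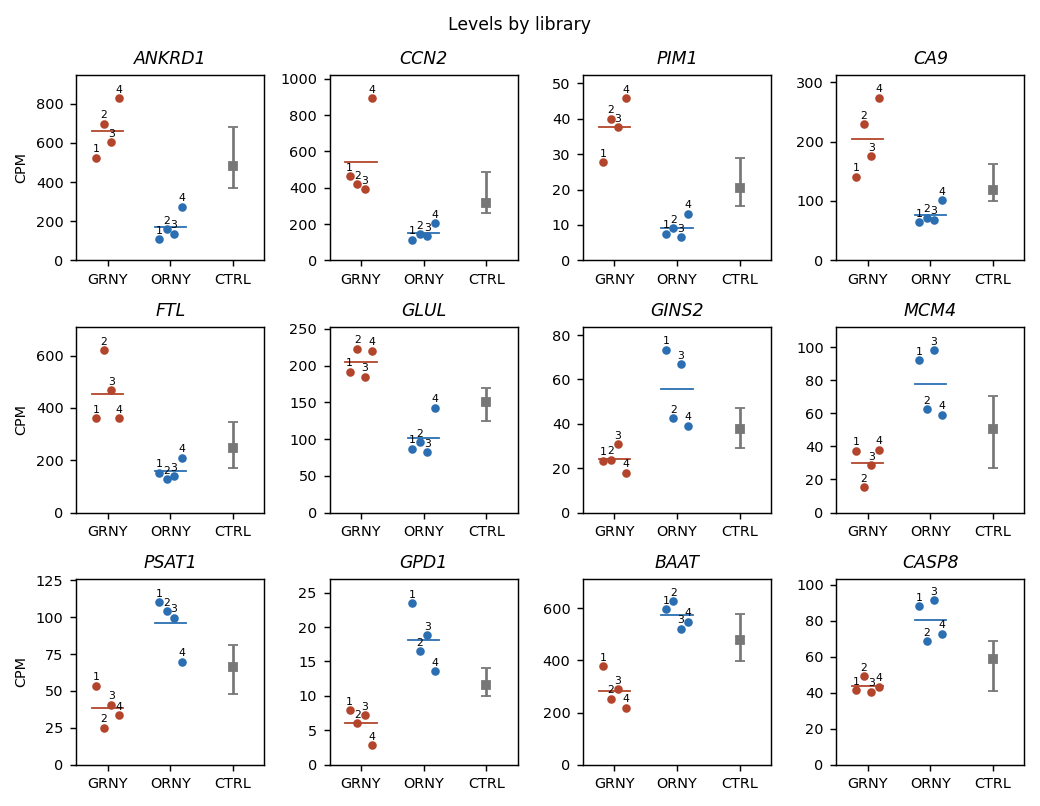
CPM (vertical, from 0) of 12 genes in each GRNY library (red) and each ORNY library (blue), numbered 1 to 4, with the site mean as a line; the grey square is the mean of the 8 controls with their lowest and highest value. GRNY and ORNY libraries overlap in none of the 12 panels, and the control mean lies between the site means in each.

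Growth-factor and immediate early genes, which cells induce within minutes to hours of a stimulus, were also called higher more often than lower in GRNY water. Of 20 tested immediate early genes 8 were higher and 2 lower (median 0.60), against 15.8% and 16.2% of all tested features. PIM1 (chromosome 6, 37170203 to 37175426, plus strand), a serine/threonine kinase that promotes survival, had 27.7, 40.1, 37.6 and 45.8 CPM in the GRNY libraries, against 7.53, 9.12, 6.62 and 13.2 CPM in the ORNY libraries. No GRNY library was below the highest ORNY library, which was ORNY 4, and the difference was 2.07 ± 0.28 (SE, adjusted p = 3.18e-07). JUND, a subunit of the AP-1 transcription factor, had 252, 308, 259 and 454 CPM in the GRNY libraries, against 114, 151, 107 and 199.7 CPM in the ORNY libraries, a difference of 1.16 ± 0.16 (SE, adjusted p = 4.03e-07). JUNB, its relative, differed by 1.13 ± 0.21 (SE, adjusted p = 6.98e-05), KLF6 by 0.98 ± 0.19 (SE, adjusted p = 0.000103) and BTG2, an inhibitor of proliferation, by 0.77 ± 0.18 (SE, adjusted p = 0.000883). KLF4 (-1.03) and MYC (-0.21) were the members called lower. Among 8 tested EGF family ligands, receptors and feedback genes, HBEGF (0.74), ERBB2 (0.81), EGFR (0.97) and DUSP6 (0.66) were higher. AREG, a ligand of EGFR, was lower, with 6.69, 6.4, 7.18 and 4.21 CPM in the GRNY libraries, against 15.8, 12.1, 18.4 and 6.32 CPM in the ORNY libraries. The highest GRNY value of AREG was above ORNY 4 and below the other 3 ORNY libraries. DUSP6 lost its call without GRNY 4, ORNY 1 or ORNY 3 and with all 71 libraries, and AREG and DUSP6 were not called with the 8 libraries alone. Without GRNY 4 and ORNY 4 the immediate early list had 8 higher and 3 lower, and the EGF list 3 higher and 1 lower. Without ORNY 1 or ORNY 3 the EGF list had 2 higher. KLF4, MYC and EGFR, and IER5, CCN1 and DUSP1 among the higher immediate early genes, are the remaining called members of these lists. CCN1 and DUSP1 were called neither with all 71 libraries nor with the 8 alone. CCN1 also lost its call without GRNY 1, GRNY 4, ORNY 2 or ORNY 3. DUSP1 also lost its call without GRNY 1, GRNY 2, GRNY 3, ORNY 1 or ORNY 3. KLF4 lost its call without ORNY 3 and with the 8 libraries alone, EGFR with all 71 and without any 1 library other than GRNY 2 and ORNY 4, and MYC with all 71, with the 8 alone and without any 1 library other than ORNY 4.

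The replication genes that were called fell in GRNY water relative to ORNY water in all but 1 case, while most of the mitosis genes that were called rose. Of 27 tested replication genes 14 were lower and 1 was higher, with a median of -0.58, against 16.2% lower among all tested features. MCM4, a subunit of the helicase that opens the DNA, had 37.3, 15.2, 28.7 and 38.1 CPM in the GRNY libraries, against 92.2, 62.6, 98 and 59.2 CPM in the ORNY libraries. GINS2 (chromosome 16, 85676198 to 85690073, minus strand), a subunit of the GINS complex that joins that helicase, had 23.4, 23.9, 30.7 and 18 CPM in the GRNY libraries, against 73.4, 42.6, 67 and 39.1 CPM in the ORNY libraries. In both genes every ORNY library was above every GRNY library, with ORNY 1 and ORNY 3 highest. The differences were -1.38 ± 0.25 (SE, adjusted p = 4.88e-05) for MCM4 and -1.21 ± 0.22 (SE, adjusted p = 5.51e-05) for GINS2. POLA2 (chromosome 11, 65261762 to 65305589, plus strand), a subunit of the polymerase that starts each new strand, had 8.26, 4.33, 5.82 and 9.19 CPM in the GRNY libraries, against 21.2, 15.1, 22.9 and 11.3 CPM in the ORNY libraries, a difference of -1.36 ± 0.26 (SE, adjusted p = 6.66e-05). All GINS subunits tested were lower: GINS1 (-2.29), GINS3 (-1.38) and GINS4 (-1.04) beside GINS2. Among the other members called lower were MCM3 (-0.50), MCM6 (-0.60), MCM10 (-0.50), POLE2 (-2.07), CDC6 (-0.60), CCNE2 (-1.25) and CHAF1B (-0.58). GINS1 and POLE2 were at or below 3.64 CPM in every GRNY library. CDT1, which loads the helicase, was the member called higher (0.33). Leaving out 1 library left 8 to 15 members called lower, and leaving out GRNY 4 and ORNY 4 together left 16. The 8 libraries alone gave 3 and all 71 gave 7. DUT, the enzyme that removes dUTP, also belonged to the 12 largest falls among genes without overlap, at -2.33, and lost its call without GRNY 2, GRNY 3 or ORNY 2 and in the fits of 71 and 8 libraries; GINS1, GINS3, GINS4 and POLE2 lost their calls with the 8 alone. MCM3, MCM6, MCM10, CDC6, CCNE2, CHAF1B and CDT1 were called neither with all 71 libraries nor with the 8 alone. Without ORNY 1 there were 8 members called lower, and without ORNY 3 there were 9. MCM3, MCM6, MCM10, CDC6, CCNE2 and CHAF1B lost their calls without ORNY 1, and all of these but MCM3 without ORNY 3. Calls were also lost without GRNY 1 (CDC6, CHAF1B), GRNY 2 (MCM6, CCNE2, CHAF1B), GRNY 3 (MCM6, CHAF1B), GRNY 4 (MCM3, MCM6, MCM10, CDC6) and ORNY 4 (CHAF1B).

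Of 26 tested mitosis genes, 9 were higher and 1 was lower in GRNY water (median 0.24), against 15.8% and 16.2% of all tested features. PRC1, which bundles the microtubules of the spindle midzone, had 61.2, 56.4, 66 and 71.6 CPM in the GRNY libraries, against 33.8, 31.1, 38.8 and 41.6 CPM in the ORNY libraries, with every GRNY library above every ORNY library and a difference of 0.81 ± 0.16 (SE, adjusted p = 7.91e-05). CENPF, a kinetochore protein, differed by 0.66 ± 0.18 (SE, adjusted p = 0.00456), and MKI67, the proliferation antigen, by 0.55 ± 0.16 (SE, adjusted p = 0.0079). PLK1 (0.97), ASPM (0.98), ECT2 (0.92), ANLN (0.51), AURKA (0.37) and KIF2C (0.36) were the others called higher. CDK1, the kinase that drives entry into mitosis, was lower (-0.80). Apart from PRC1 and CENPF, each of these genes lost its call with all 71 libraries, and apart from PRC1 each did with the 8 alone. Between 5 and 9 members were called higher when 1 library was left out, the fewest without ORNY 2, and 7 were without GRNY 4 and ORNY 4. MKI67 and KIF2C lost their calls without ORNY 2, PLK1 without GRNY 4, ASPM without GRNY 1, ORNY 2 or ORNY 3, AURKA without GRNY 3, ORNY 1 or ORNY 2, ECT2 without GRNY 2, GRNY 3, GRNY 4, ORNY 3 or ORNY 4, and CDK1 without GRNY 2, GRNY 3, ORNY 2, ORNY 3 or ORNY 4. In bulk RNA, a change in how many cells are in a phase and a change of RNA per cell cannot be told apart.

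Glycolytic enzymes and hypoxia genes were called higher in GRNY water in a larger share than the 15.8% of all tested features. Of 15 tested glycolysis genes 7 were higher and 0 lower (median 0.46): PGAM1 (0.81), PKM (0.62), PGK1 (0.46), HK1 (0.81), ALDOC (0.82), ENO2 (0.41) and ALDOA (0.50). PGAM1, which shifts the phosphate of phosphoglycerate, had 165, 185, 159 and 209.9 CPM in the GRNY libraries, against 92.4, 90.1, 96.9 and 130.1 CPM in the ORNY libraries, a difference of 0.81 ± 0.13 (SE, adjusted p = 6.77e-06). Of 19 tested hypoxia genes 8 were higher and 3 lower (median 0.35). CA9 (chromosome 9, 35673856 to 35681159, plus strand), the cell-surface carbonic anhydrase used as a hypoxia marker, had 141, 229, 175 and 274 CPM in the GRNY libraries, against 64.4, 72, 68.6 and 101 CPM in the ORNY libraries. The groups did not overlap, and GRNY had the highest and ORNY the lowest mean of the 16 sites. Its difference was 1.42 ± 0.19 (SE, adjusted p = 2.74e-07). NDRG1, a stress-responsive gene of differentiation, had 3989.6, 4657, 3712 and 5432 CPM in the GRNY libraries, against 2234, 2387, 2026 and 3271 CPM in the ORNY libraries, a difference of 0.84 ± 0.13 (SE, adjusted p = 2.16e-06). LOX, which cross-links collagen, differed by 0.65 ± 0.10 (SE, adjusted p = 2.28e-06). PDK1, which holds pyruvate back from the mitochondrion and is itself a HIF target, was lower, with 10, 9.6, 11.8 and 5.55 CPM in the GRNY libraries, against 20.2, 20.9, 18.8 and 13.4 CPM in the ORNY libraries and a difference of -0.98 ± 0.19 (SE, adjusted p = 0.000115). KDM3A, a histone demethylase (-2.24), and EPO (-0.62) were the others called lower. With the 8 libraries alone 3 glycolysis genes and 5 hypoxia genes were called higher, and with all 71 libraries 3 and 3. Without GRNY 4 and ORNY 4 the glycolysis list had 6 higher and 0 lower and the hypoxia list 10 higher and 3 lower, and without ORNY 1 the glycolysis list had 4 higher. PKM, PGK1, ENO2, ALDOA, NDRG1 and LOX were not called with all 71 libraries, and PGK1, ALDOC, ENO2, ALDOA and EPO were not called with the 8 alone. ALDOC lost its call without ORNY 1, ENO2 without ORNY 1 or ORNY 3, and ALDOA without GRNY 1, GRNY 4, ORNY 1, ORNY 2 or ORNY 3.

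Of 22 tested NRF2 targets, genes of the antioxidant response, 9 were higher in GRNY water, the ferritin gene FTL among them. FTL is counted in the NRF2 list and in the iron list below. FTL (chromosome 19, 48965301 to 48966878, plus strand), the light chain of ferritin, had 361, 621, 468 and 361 CPM in the GRNY libraries, against 152, 127, 139.9 and 209 CPM in the ORNY libraries, with no overlap and GRNY 2 highest. The controls averaged 245 ± 66.6 CPM and the difference was 1.53 ± 0.25 (SE, adjusted p = 7.96e-06). The iron regulatory proteins, which bind ferritin mRNA, were higher too: IREB2 by 0.97 ± 0.20 (SE, adjusted p = 0.000189) and ACO1 by 0.57 ± 0.11 (SE, adjusted p = 0.000105). With ACVR1 (0.50), a BMP receptor whose call was lost without GRNY 1, ORNY 1 or ORNY 2, with all 71 libraries and with the 8 alone, these were 4 of 14 iron and hepcidin genes called higher, with 0 lower. Of the NRF2 targets 0 were lower, and their median was 0.37. Among all tested features 15.8% were higher and 16.2% lower, with a median of -0.02. OSGIN1, a growth inhibitor induced by oxidative stress, had 20.4, 17.5, 17.3 and 39.8 CPM in the GRNY libraries, against 7.43, 6.55, 5.81 and 11.8 CPM in the ORNY libraries, a difference of 1.60 ± 0.30 (SE, adjusted p = 6.71e-05). GSR, which regenerates glutathione, had 1129, 1551, 1379 and 1347 CPM in the GRNY libraries, against 881, 878, 851 and 1085 CPM in the ORNY libraries. In GSR the lowest GRNY library was just above ORNY 4, and the difference was 0.55 ± 0.09 (SE, adjusted p = 7.72e-06). The others called higher were AKR1B10 (0.92), AKR1C1 (0.46), AKR1C2 (0.52), AKR1C3 (0.42), GCLC (0.53) and NQO1 (0.34); the AKR1C genes are near-identical copies, so their separate values are uncertain. Leaving out 1 library left 8 to 10 NRF2 targets called higher, while the 8 libraries alone left 4 and all 71 left 3. FTL and OSGIN1 kept their calls in each of these fits, GSR, NQO1, GCLC and the AKR1C genes lost theirs with all 71 libraries, and NQO1, GCLC, AKR1B10, AKR1C1 and AKR1C3 lost theirs with the 8 alone. AKR1C1 also lost its call without GRNY 2, GRNY 3, ORNY 1 or ORNY 3. Without GRNY 4 and ORNY 4 the NRF2 list had 9 higher and 1 lower, and the iron list 4 higher and 2 lower.

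Amino acid enzymes were called in both directions. Of 13 tested urea cycle and proline genes 6 were higher and 0 lower (median 0.26), against 15.8% and 16.2% of all tested features. GLUL, glutamine synthetase, had 192, 223, 185 and 220.3 CPM in the GRNY libraries, against 87, 95.5, 82.3 and 143 CPM in the ORNY libraries, a difference of 1.01 ± 0.14 (SE, adjusted p = 3.16e-07) with no overlap. ARG2, the mitochondrial arginase, differed by 0.84 ± 0.16 (SE, adjusted p = 7.32e-05). ALDH18A1, which starts proline synthesis from glutamate, differed by 1.45 ± 0.30 (SE, adjusted p = 0.000206) with GRNY 4 at 73.2 CPM and the other GRNY libraries at 22.3 to 24.3 CPM. ALDH4A1 (0.66), OAT (0.85) and CPS1 (0.59) were the others. PYCR3, which ends proline synthesis and was not on that list, had 7.21, 6.59, 7.92 and 7.28 CPM in the GRNY libraries, against 23.5, 20.2, 25.1 and 16 CPM in the ORNY libraries. Every ORNY library was above every GRNY library, and the difference was -1.55 ± 0.18 (SE, adjusted p = 1.3e-08). PSAT1, an enzyme of serine synthesis, had 53.6, 25.2, 40.7 and 33.7 CPM in the GRNY libraries, against 110.2, 104, 99.5 and 69.9 CPM in the ORNY libraries, a difference of -1.31 ± 0.19 (SE, adjusted p = 6.32e-07). ASNS, asparagine synthetase, had 21.1, 3.76, 4.45 and 39.5 CPM in the GRNY libraries, against 44.2, 88.2, 67.4 and 43.8 CPM in the ORNY libraries; GRNY 2 and GRNY 3 were far below GRNY 1 and GRNY 4, and the difference was -1.84 ± 0.52 (SE, adjusted p = 0.00489). PSAT1 and ASNS are ATF4 targets, and ATF4 itself was higher (0.37, lost without GRNY 4). Of the 17 tested ATF4 genes 2 were higher and 3 lower, shares near those of all tested features. CEBPG (-0.98) was the remaining lower one. With the 8 libraries alone ALDH18A1, ALDH4A1, CPS1, ASNS, CEBPG and ATF4 were not called, and with all 71 ATF4 was not. CPS1 lost its call without ORNY 3. Without GRNY 4 and ORNY 4 the urea cycle and proline list had 6 higher and 0 lower, and the ATF4 list 3 higher and 5 lower.

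Of 7 tested bile acid genes 3 were lower and 0 higher in GRNY water, also without GRNY 4 and ORNY 4. Over all tested features 16.2% were lower and 15.8% higher. Lipid genes were called in both directions. BAAT (chromosome 9, 101360417 to 101383519, minus strand), which joins bile acids to glycine or taurine, had 377, 253, 289.6 and 218 CPM in the GRNY libraries, against 596, 627, 521 and 549 CPM in the ORNY libraries, a difference of -1.01 ± 0.13 (SE, adjusted p = 7.85e-08). AKR1D1, a reductase of bile acid synthesis, had 35, 9.78, 17.8 and 16.3 CPM in the GRNY libraries, against 61.6, 64.6, 64.5 and 48.4 CPM in the ORNY libraries, a difference of -1.58 ± 0.29 (SE, adjusted p = 5.23e-05). For BAAT and AKR1D1 all GRNY libraries were below all ORNY libraries, and GRNY had the lowest mean of the 16 sites. NR1H4, the bile acid receptor FXR, differed by -0.36 ± 0.10 (SE, adjusted p = 0.00445) and lost its call without both GRNY 4 and ORNY 4, with all 71 libraries, and with the 8 alone. GPD1 (chromosome 12, 50103819 to 50111319, plus strand), which links glycolysis to glycerolipid synthesis, had 7.95, 6.02, 7.18 and 2.87 CPM in the GRNY libraries, against 23.5, 16.5, 18.8 and 13.6 CPM in the ORNY libraries, a difference of -1.57 ± 0.21 (SE, adjusted p = 2.74e-07). PLPPR1, an integral membrane relative of the lipid phosphatases, had 51.9, 48.4, 49.4 and 38.7 CPM in the GRNY libraries, against 20.1, 20.1, 18 and 30.4 CPM in the ORNY libraries, a difference of 1.10 ± 0.12 (SE, adjusted p = 1.1e-08). Among 23 tested phospholipid and glycerol-3-phosphate genes, GPD1 was the only one called lower, and PLPPR1, CHKA, LPIN2 and ETNPPL were higher, CHKA and ETNPPL neither with all 71 libraries nor with the 8 alone. ETNPPL also lost its call without GRNY 1, GRNY 2, GRNY 4, ORNY 1 or ORNY 3.

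PPARA, the receptor that drives fatty acid oxidation, differed by 0.76 ± 0.16 (SE, adjusted p = 0.000315). Of 21 tested PPARA targets and oxidation genes 8 were higher and 3 lower, against 15.8% and 16.2% of all tested features. Without ORNY 3 there were 5 higher, and the lower ones numbered 5 without GRNY 1, 1 without GRNY 2 and 0 without GRNY 3. NCEH1, a cholesterol ester hydrolase, had 209.8, 251, 253 and 236 CPM in the GRNY libraries, against 93, 119.7, 94.5 and 151 CPM in the ORNY libraries, a difference of 1.05 ± 0.12 (SE, adjusted p = 1.21e-08). Cholesterol synthesis had 2 genes higher and 2 lower of 18, and fatty acid synthesis 3 higher and 2 lower of 11. Among 32 other detoxification enzymes 2 were higher and 7 lower, with 4 lower without GRNY 2 and 2 without GRNY 3. MGST1, a membrane glutathione transferase, had 113, 101, 127 and 50.8 CPM in the GRNY libraries, against 279.7, 222, 268 and 139 CPM in the ORNY libraries. Only ORNY 4 came near the GRNY libraries, and the difference was -1.21 ± 0.27 (SE, adjusted p = 0.000451). Of 11 tested PXR and CAR targets 1 was higher and 2 were lower: POR, the electron donor of cytochromes P450, differed by 0.53 ± 0.08 (SE, adjusted p = 5.48e-06), and ABCB1, a drug exporter, by -0.48 ± 0.13 (SE, adjusted p = 0.00314), a call that both the 71 and the 8 libraries lost.

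Among liver regulators and growth factor receptors, NR5A2, FOXA1 and IGF1R were higher in GRNY water and CEBPA was lower. Of 29 tested members of the liver transcription factor and nuclear receptor list 9 were higher and 2 lower. Over all tested features 15.8% were higher and 16.2% lower. The list also holds LRP5, which is neither kind of protein and is among the 9. NR5A2, a nuclear receptor of bile acid and cholesterol genes, had 39.7, 36.9, 34.6 and 49.8 CPM in the GRNY libraries, against 14.6, 19.4, 13.4 and 27.4 CPM in the ORNY libraries, a difference of 1.12 ± 0.19 (SE, adjusted p = 9.42e-06). FOXA1, a pioneer factor, had 146, 149.8, 143 and 142 CPM in the GRNY libraries, against 80.1, 91.1, 73.3 and 104 CPM in the ORNY libraries, a difference of 0.73 ± 0.13 (SE, adjusted p = 1.94e-05). LRP5, a WNT co-receptor, differed by 1.05 ± 0.16 (SE, adjusted p = 2.28e-06) and NR2F2 by 0.74 ± 0.13 (SE, adjusted p = 1.37e-05). CEBPA, a factor of the mature hepatocyte, was lower (-0.62). IGF1R, the receptor of insulin-like growth factor 1, had 124, 152, 139.8 and 112 CPM in the GRNY libraries, against 58.7, 48.2, 53 and 60.8 CPM in the ORNY libraries, a difference of 1.26 ± 0.27 (SE, adjusted p = 0.00042), and INSR, the insulin receptor, differed by 0.65 ± 0.12 (SE, adjusted p = 3.84e-05). FOXO1 (-0.68), a factor that insulin signalling shuts out of the nucleus, and GRB14 (-1.09), an inhibitor of the insulin receptor, were lower. Both lost their calls with all 71 libraries, with the 8 alone and without GRNY 2, GRNY 4 or ORNY 2, and GRB14 also without GRNY 3, ORNY 1 or ORNY 4.

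F13B, the carrier subunit of clotting factor XIII, had 14.7, 16.2, 12.1 and 19 CPM in the GRNY libraries, against 3.35, 4.72, 2.56 and 7.3 CPM in the ORNY libraries. The groups were apart, GRNY had the highest and ORNY the lowest mean of the 16 sites, and the difference was 1.83 ± 0.26 (SE, adjusted p = 5.46e-07). C3, the central complement component, had 1169, 1347, 1146 and 1524 CPM in the GRNY libraries, against 732, 743, 675 and 950.3 CPM in the ORNY libraries, a difference of 0.74 ± 0.11 (SE, adjusted p = 7.57e-07). In the list of 29 complement and coagulation genes 5 were higher and 3 lower, in the 16 acute phase genes 3 and 3, and in the 20 albumin, apolipoprotein and transport genes 3 and 4, shares near those of all tested features. CLU, a secreted chaperone, had 19.4, 17.7, 17 and 57.3 CPM in the GRNY libraries, against 7.53, 5.79, 5.81 and 12.8 CPM in the ORNY libraries, a difference of 1.82 ± 0.39 (SE, adjusted p = 0.000371) in which GRNY 4 stood far above the rest. LYZ, lysozyme, had 2448, 2129, 2416 and 3102 CPM in the GRNY libraries, against 964, 1007, 899 and 1430.3 CPM in the ORNY libraries, a difference of 1.23 ± 0.18 (SE, adjusted p = 1.03e-06).

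Caspase and death receptor genes were called lower only: 6 of 14 tested, with a median of -0.40 and 0 higher. Shares over all tested features were 16.2% lower and 15.8% higher, and the other lists of this paragraph are set beside them too. CASP8, the caspase that death receptors activate, had 41.3, 49.3, 40.6 and 43.3 CPM in the GRNY libraries, against 88, 68.5, 91.3 and 72.8 CPM in the ORNY libraries. All GRNY libraries were below all ORNY libraries, the controls averaged 59 ± 8.86 CPM, and the difference was -0.88 ± 0.14 (SE, adjusted p = 6.72e-06). CASP6, an executioner caspase, differed by -1.09 ± 0.22 (SE, adjusted p = 0.000157), and CASP9, the caspase of the apoptosome, by -0.58 ± 0.16 (SE, adjusted p = 0.00521). CASP2 (-1.01), FAS (-0.61) and BIRC3 (-0.86), an inhibitor of apoptosis, were the others. With 1 library left out 4 to 7 were called lower, and with the 8 libraries alone 2 were. CASP9 and BIRC3 lost their calls in that fit, and CASP2 and FAS in that and in the fit of all 71. CASP2 also lost its call without GRNY 2 or ORNY 3, and FAS without GRNY 1, GRNY 2, ORNY 1 or ORNY 2. Without GRNY 4 and ORNY 4 the list had 0 higher and 6 lower. Among 20 tested p53 targets 5 were higher and 1 lower, among them GDF15, a secreted stress hormone, at 0.70 ± 0.16 (SE, adjusted p = 0.00103), a call lost with all 71 libraries. Interferon genes split: of 25 tested 5 were higher, IFITM1 with 1.09 ± 0.24 (SE, adjusted p = 0.000425) among them, and 7 lower, GBP1 with -1.36 ± 0.22 (SE, adjusted p = 7.72e-06) and IFI6 with -0.74 ± 0.13 (SE, adjusted p = 3.08e-05) among them. Annexins, which bind membranes with calcium, split as well, 2 of 10 tested being higher and 4 lower (2 lower without GRNY 2 or GRNY 4, 1 without ORNY 2). ANXA2 had 1338, 1856, 1634 and 1628 CPM in the GRNY libraries, against 874, 888, 1024 and 1187 CPM in the ORNY libraries, a difference of 0.70 ± 0.09 (SE, adjusted p = 2.74e-07). ANXA1, whose protein dampens inflammation, had 0.314, 0.564, 1.48 and 0.958 CPM in the GRNY libraries, against 5.54, 7.19, 6.16 and 1.38 CPM in the ORNY libraries, a difference of -2.64 ± 0.46 (SE, adjusted p = 1.85e-05), with ORNY 4 among the GRNY values and 3 ORNY libraries well above them.

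With both directions together, mitochondrial ribosomal and proteasome genes held shares of calls near the 31.9% of all tested features. By direction, 15.8% of all tested features were higher and 16.2% lower, while in both lists more genes were called lower than higher. Mitochondrial ribosomal proteins had 17 of 70 lower and 6 higher (median -0.13), and proteasome genes 9 of 35 lower and 3 higher (median -0.27). MRPL15 differed by -0.61 ± 0.12 (SE, adjusted p = 8.6e-05) and PSMD7, a lid subunit of the proteasome, by -0.74 ± 0.18 (SE, adjusted p = 0.00129). With the 8 libraries alone 3 mitochondrial ribosomal genes and 1 proteasome gene were called lower. With 1 library left out 8 to 20 mitochondrial ribosomal genes were lower, with 8 without ORNY 3, 10 without ORNY 1 and 11 without GRNY 4. The proteasome list had 5 to 11 lower in the same way, the fewest without ORNY 3. Without GRNY 4 and ORNY 4 each of the 2 lists had 15 lower. ER chaperones had 7 of 19 higher and 0 lower. HSPA5, the main chaperone of the endoplasmic reticulum, had 2099, 2437, 2088 and 2402 CPM in the GRNY libraries, against 1175, 1236, 1091 and 1851 CPM in the ORNY libraries, a difference of 0.75 ± 0.11 (SE, adjusted p = 1.15e-06), and every GRNY library was above every ORNY library. Cytosolic and mitochondrial heat shock genes had 5 higher and 4 lower of 22 (2 higher without ORNY 1 or ORNY 2, 3 without GRNY 2, GRNY 3, GRNY 4 or ORNY 3), with HSPB1, a small heat shock protein, lower at -0.76 ± 0.17 (SE, adjusted p = 0.000599) and DNAJA3, a mitochondrial co-chaperone, higher at 0.84 ± 0.19 (SE, adjusted p = 0.000647). Oxidative phosphorylation had 8 higher and 4 lower of 52, and lysosomal genes 6 and 6 of 36. HSPA5, MRPL15 and PSMD7 were not called with all 71 libraries, and HSPB1 and DNAJA3 were not called with the 8 alone.

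**Figure D4:**
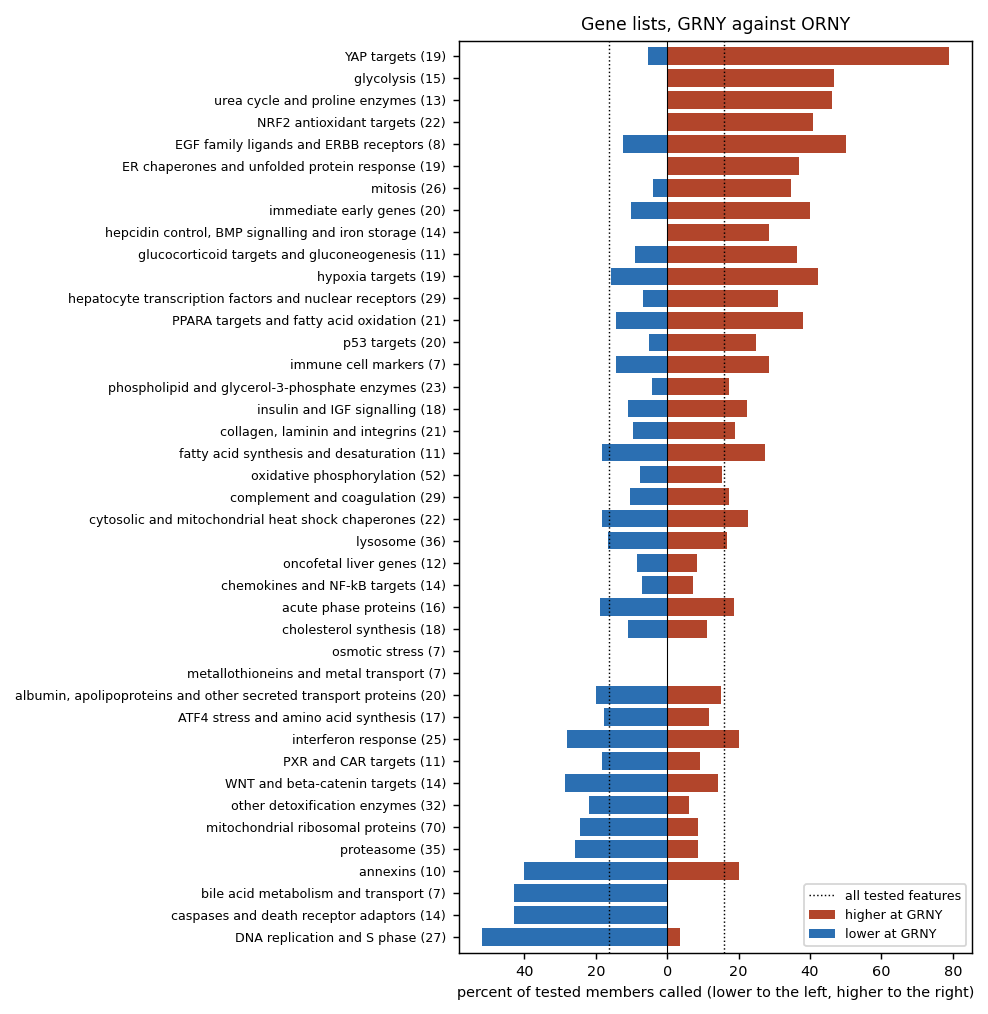
Percent of the tested members called higher (red, right) or lower (blue, left) at GRNY in the 41 lists with at least 7 tested members, whose number stands in brackets; dotted lines mark 15.8% and 16.2%, the shares over all tested features. YAP targets stand at the top and DNA replication genes at the bottom.

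None of the 7 tested metallothionein and metal transport genes was called in either direction between the 2 waters. Without GRNY 1 there were 2 of them called higher, and without GRNY 3 there was 1. Against the controls, MT1M and MT1G were called higher in both waters. MT2A, another metallothionein gene, was called higher in GRNY water (1.08, adjusted p = 0.00517) but not in ORNY water (0.57, adjusted p = 0.175). Every GRNY library of MT2A was above every ORNY library, though the difference between the sites was not called (adjusted p = 0.158). MT1M, a metallothionein that binds zinc and copper, had 27, 28.2, 29.9 and 25.1 CPM in the GRNY libraries, against 30.5, 28.5, 34.7 and 21.5 CPM in the ORNY libraries, and the controls averaged 16 ± 3.66 CPM. The 2 sites overlapped, and both were above the controls, by 0.79 in GRNY water (adjusted p = 0.00128) and 0.86 in ORNY water (adjusted p = 0.000235). The difference between the sites was -0.07 ± 0.17 (SE, adjusted p = 0.784), with a 95% interval from -0.41 to 0.27. For MT1G the interval ran from -0.01 to 0.55 and for MT2A from -0.05 to 1.06. HAMP, which encodes the iron hormone hepcidin, had 22.6, 19.4, 21.8 and 34.7 CPM in the GRNY libraries, against 33.4, 17.9, 33.6 and 20.5 CPM in the ORNY libraries, with an interval from -0.56 to 0.35. CYP1A1, the cytochrome induced through the aryl hydrocarbon receptor, ranged from 15.2 to 187 CPM over the GRNY libraries, against 46.7 to 131 CPM over the ORNY libraries. Its interval, -0.74 to 1.04, leaves room for a difference of about 1 log2 unit upward. Of the 4 tested AHR list members 3 were higher and 0 lower: AHR itself (0.42), NFE2L2 (0.42), which encodes NRF2, and NQO1 (0.34), also counted as an NRF2 target. CYP1A1 was the member not called. All 3 lost their calls in the fits of 71 and 8 libraries, and AHR also without GRNY 4.

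The remaining lists are given by their counts, beside 15.8% higher and 16.2% lower over all tested features. Osmotic stress genes had 0 of 7 called, WNT targets 2 higher and 4 lower of 14, and chemokine and NF-kB genes 1 and 1 of 14. Glucocorticoid and gluconeogenesis genes had 4 higher and 1 lower of 11, the lower one being FKBP5 at -0.73 ± 0.14 (SE, adjusted p = 7.21e-05). Oncofetal genes had 1 and 1 of 12, insulin and IGF genes 4 and 2 of 18, and collagen, laminin and integrin genes 4 and 2 of 21. With 1 library left out, WNT targets called lower numbered 1 to 4 (1 without GRNY 4 or ORNY 1), oncofetal genes called higher 1 to 4 (4 without GRNY 4), insulin and IGF genes called lower 0 to 2 (0 without GRNY 2, GRNY 4 or ORNY 2) and collagen, laminin and integrin genes called higher 2 to 4 (2 without GRNY 4, ORNY 1 or ORNY 3). Some defining markers of other cell types were at 0: the leukocyte gene PTPRC, the macrophage gene CD163, the endothelial genes KDR and CLDN5, and the fibroblast genes FAP and POSTN had 0 counts over all 8 libraries. They do not stand for their lists. In the whole series 14 of 16 immune, 10 of 11 endothelial and 11 of 12 fibroblast markers had counts, and 7, 3 and 2 passed the filter. Among the tested immune markers LYZ was higher and CD68 lower, with summed levels of 2248 to 3363 CPM in the GRNY libraries and 1152 to 1688 CPM in the ORNY libraries, nearly all LYZ. Of 3 tested endothelial markers ESAM was lower (-0.79), and of 2 fibroblast markers and 1 other epithelial marker 0 were called. The fibroblast list summed to 39.3 to 55.4 CPM in the GRNY libraries and 44.5 to 61.2 CPM in the ORNY libraries. CD68 lost its call without GRNY 2 and with all 71 libraries, and ESAM without ORNY 2. With the 8 libraries alone neither CD68 nor ESAM was called. LYZ kept its call in each fit.

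Among the smallest p-values were genes of no list. CAMKK2, a kinase that activates AMPK, had 49.6, 42.5, 53.2 and 44.8 CPM in the GRNY libraries, against 116, 105, 113 and 66.9 CPM in the ORNY libraries, a difference of -1.08 ± 0.12 (SE, adjusted p = 1.21e-08). PPM1H, a phosphatase, had 489.7, 637, 556 and 555 CPM in the GRNY libraries, against 255, 293, 251 and 389 CPM in the ORNY libraries, a difference of 0.91 ± 0.11 (SE, adjusted p = 1.21e-08). EEF2KMT, which methylates a translation elongation factor, differed by -0.95 ± 0.12 (SE, adjusted p = 4.58e-08), and EXOSC3, a subunit of the RNA exosome, by -0.88 ± 0.11 (SE, adjusted p = 6e-08). Every ORNY library was above every GRNY library for CAMKK2, EEF2KMT and EXOSC3, and below for PPM1H. Among the largest falls without overlap, JRKL had 0.732, 0.188, 1.11 and 2.87 CPM in the GRNY libraries, against 9.83, 11.6, 12.3 and 4.93 CPM in the ORNY libraries, a difference of -3.05 ± 0.52 (SE, adjusted p = 1.25e-05), and KIF1BP, a partner of kinesin motors, had 10.4, 0.941, 1.61 and 9.39 CPM in the GRNY libraries, against 26.9, 35.4, 35.1 and 23.9 CPM in the ORNY libraries, a difference of -2.42 ± 0.51 (SE, adjusted p = 0.000259). GRNY 2 and GRNY 3 held the lowest KIF1BP values by far, a split that 34.4% of the features called lower and 32.1% of all tested features showed in the sense that both lay below GRNY 1 and GRNY 4. LCMT2, a tRNA-modifying enzyme (-2.20), and KYAT1, a transaminase (1.65), are the remaining examples, LCMT2 lower and KYAT1 higher.

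Several of the largest fitted changes belonged to members of gene families with near-identical copies and are uncertain. NPIPB8 had 0 counts in the 4 GRNY libraries and 1593 counts over the ORNY libraries, at least 459.7-fold lower in GRNY water against a floor of 3 counts over the group. ORNY 4 had 1.58 CPM of it and the other ORNY libraries 30.7 to 82.9 CPM. AGAP5 had 335 counts over the GRNY libraries and 0 over the ORNY libraries, at least 129-fold higher, with 0.192 CPM in GRNY 4 and up to 23.1 CPM in the others. FAM72D was lower (-4.33) while its copy FAM72C, named after its values were seen, was higher, averaging 4.32 CPM in GRNY water and 0 CPM in ORNY water. Reads shared between copies could be split differently between libraries by the authors' quantification. AGAP5 and FAM72D were not called by DESeq2, and FAM72D was also lost with all 71 libraries, with GRNY, ORNY and controls alone, and without any 1 of GRNY 1, 3 and 4 or ORNY 1, 2 and 3. These floors cover counting error only, and not the spread between dishes. Over the 8 control libraries NPIPB8 ranged from 0 to 77.5 CPM, AGAP5 from 0 to 6.19 CPM and FAM72D from 0 to 10.3 CPM.

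**Figure D5:**
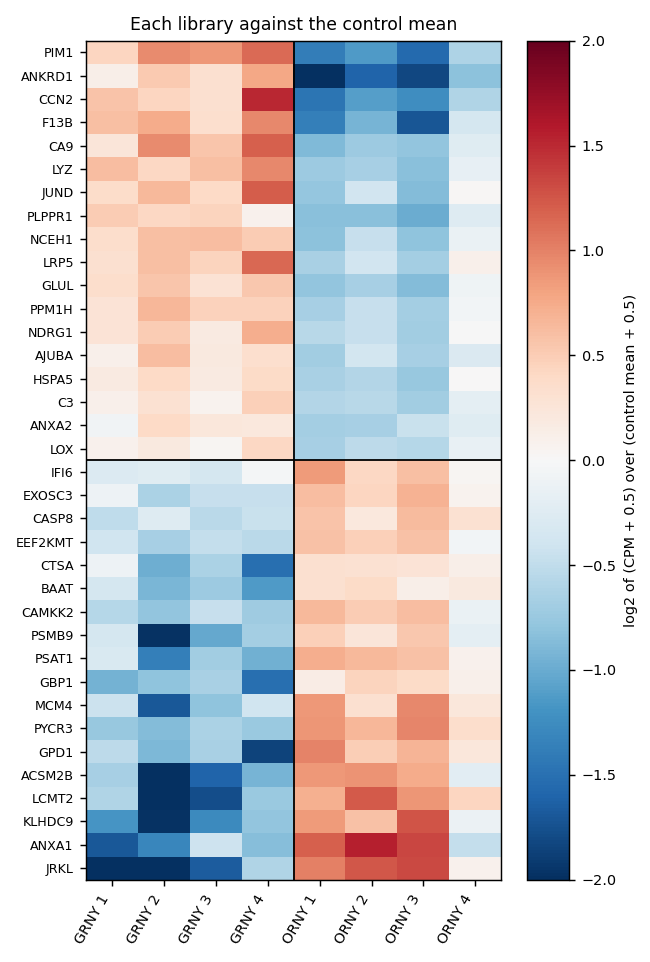
Each GRNY library and each ORNY library (columns) against the mean of the 8 controls, as log2 of CPM plus 0.5 over the control mean plus 0.5 (colour, limited at 2), for the 18 named genes with the smallest p-values called higher (above the line) and the 18 called lower (below it). GRNY columns are mostly red above the line and blue below it, ORNY columns the reverse, and ORNY 4 is the palest ORNY column in most of the genes above the line.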

How the data were processed

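HepG2 cells were assayed by TempO-Seq in 71 libraries of 16 sites and controls. The authors deposited expected counts (estimated read counts) per gene under a name that calls them normalized; values under 20 lay within 0.02 of whole multiples of 1 read in 91.7% or more of cases per library, so they were rounded and used as counts. Salmon and GRCh38 are named, per the submitters' processing notes; the version of Salmon and where the probes lie are not stated in the sources at hand. Of the alphabetical table, 31012 complete entries were used, up to RAI1-AS1; later symbols were not analysed here. Of the 16 control dishes the protocol describes, 8 libraries were used.

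Counts were fitted with edgeR 4.0.16 in R 4.3.3: quasi-likelihood F test, TMM, filterByExpr with a minimum count of 10, 1 mean per group over 68 libraries (51 residual degrees of freedom), without VROH 2 (8840 counts), CRMI 1 and SRMI 3, which stood apart. P-values were adjusted by Benjamini-Hochberg across the tested features and called under 0.05. Errors of log2 differences are SE from the test, errors of CPM are SD. Alternatives were RLE size factors, no filter, DESeq2 1.42.0, all 71 libraries, 3 groups or 2 groups alone, a replicate block, leaving out each site library and, chosen after seeing the data, GRNY 4 and ORNY 4 together. The procedure was tested on simulated data. The 45 gene lists share some members, such as FTL, ANLN, CCN1 and GLUL, which are counted in each list that holds them. The lists, the comparison and the naming rule were chosen with earlier results of these data known. The rule named the 12 largest changes each way without overlap and with a mean of at least 5 CPM, the 5 smallest p-values each way, up to 4 called members per list by p-value and 10 fixed genes; the text describes part of the 174 kept of these (some genes are not reported here), and names further members where it gives the called members of a list, in 1 direction or both, in full. Genes were placed with GENCODE (GRCh38), and promoters came from RefSeq (GRCh38.p14).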

Additional observations from a re-analysis of the deposited data

Results flagged for a closer look

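For each named gene it was checked whether 1 of the 4 libraries of a site lay far from the other 3. Over 348 groups of 4 libraries 28 did so, and chance alone flags about 1 in 20 groups. GRNY 4 accounted for 12 of them and ORNY 4 for 11. The part of these libraries in the results was not tested; the counts without both are 2258 called features, against 2209 with them.

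GRNY 4 was the highest GRNY library for CCN2 (891 CPM, the others 391 to 464), ALDH18A1 (73.2, the others 22.3 to 24.3), CLU (57.3, the others 17 to 19.4), KLF6 (103, the others 50.4 to 55.1) and OSGIN1 (39.8, the others 17.3 to 20.4). The same held for AKR1B10 (50 CPM), ALDH4A1 (78.5 CPM), ACSL3 (57.1 CPM), ERBB2 (100.4 CPM), FASN (325 CPM) and DHCR7, a cholesterol enzyme whose GRNY 4 value of 19.3 CPM stood against 1.69 to 4.08 CPM. DHCR7 was called higher and lost that call without GRNY 4, ORNY 1 or ORNY 3, with all 71 libraries and with the 8 alone. ACSL3 lost its call without GRNY 4 and with the 8 alone. FASN was called neither with all 71 libraries nor with the 8 alone, and ALDH18A1, AKR1B10 and ALDH4A1 not with the 8 alone. For PPP1R3C, a glycogen-targeting phosphatase subunit, GRNY 4 was the lowest at 31.4 CPM, the others being at 80.3 to 80.6 CPM. PPP1R3C lost its call with all 71 libraries, with the 8 alone and without GRNY 4, ORNY 1, ORNY 2 or ORNY 3. GRNY 1 was the lowest for MT1G (318 CPM, the others 426 to 442).

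ORNY 4 was the highest ORNY library for PDIA6 (945 CPM, the others 713 to 719), ATP5PO (711 CPM, the others 629 to 633), ATP5F1B (2246 CPM, the others 1143 to 1246), AKR1B10 (23.9 CPM, the others 14.9 to 15.3) and AEN (40.7 CPM, the others 33.7 to 34.6). It was also the highest for GSR (1085 CPM), ALDH4A1 (54.5 CPM), IREB2 (104 CPM), PLPPR1 (30.4 CPM) and PGAM1 (130.1 CPM), and the lowest for PSMC4 (36.9 CPM, the others 50.6 to 52.3). In all 11 its value lay toward the GRNY mean. ORNY 2 was the highest for APOA4 (131 CPM) and KDM3A (19.6 CPM), ORNY 3 the highest for HSPB8 (5.46 CPM), and ORNY 1 the lowest for GADD45A (58.6 CPM).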

How the results depend on the processing

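The count of features called between GRNY and ORNY was 2209, and stayed within 1.5 times of that with RLE size factors (2213), without a filter (1886), with DESeq2 (2276), with GRNY, ORNY and controls alone (1887), with 1 library left out (1646 to 2428) and without GRNY 4 and ORNY 4 (2258). It was 913 with all 71 libraries, 653 with the 8 alone and 582 with a replicate block on those 8. Same-number libraries deviated together with correlations of -0.18, -0.25, 0.13 and 0.21, and libraries of unlike number with -0.43 to 0.44. These few values cannot decide whether libraries of 1 number share a factor. Of the 174 named genes 83 lost their call with the block, and 68 with the 8 alone. POLA2, CASP6, KIF1BP and KDM3A were among those lost with the block and kept with the 8 alone. The 634 calls of GRNY against controls were 365 without a filter, 10 with all 71 libraries, 123 with 3 groups and 116 to 841 with 1 library left out. The 283 calls of ORNY against controls were 14 with all 71 libraries, 30 with 3 groups, 770 without GRNY 4 and ORNY 4, and 32 to 700 with 1 library left out. The cause of these shifts was not tested. Signs turned for 4 genes that were not called: ALB (-0.09 to 0.32 with 1 library left out, -0.20 without GRNY 4 and ORNY 4), CYP1A1 (-0.37 with the block, -0.18 without GRNY 4 and ORNY 4, -0.53 to 0.57 with 1 library left out), HAMP (-0.30 to 0.03 likewise) and MT1M (-0.16 to 0.03 likewise). Depth limits the features with low counts, the 1729 least expressed averaging 0.304 to 4.41 CPM.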
